A study of Mus musculus with 18 samples.

Results

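This report describes what deletion of *Tyrobp* did to the RNA of striatal microglia in mice that carry no Huntington's disease allele, from 3 Tyrobp-KO samples (replicates 15, 19 and 20) and 5 WT samples (replicates 1, 2, 6, 7 and 8). They were chosen by the genotype in the labels and make up 8 of the 18 samples of the series. The other 10 samples are 5 Q175 and 5 Q175;Tyrobp-KO samples, in which the same deletion was made in mice with the Q175 allele, a mutant *Huntingtin* knock-in that models Huntington's disease. The labels give the strain of all groups as C57BL/6 and the methods as C57Bl6/J. The WT samples came from 1 female and 4 males and the Tyrobp-KO samples from 2 females and 1 male, and the mice are described as adult with no age in weeks or months. The deletion is constitutive, so every cell of the animal that uses *Tyrobp* lacked it throughout life, and the mice were WT for *Huntingtin*. Microglia were pulled from the dissociated striatum by beads that bind CD11b, which other myeloid cells also carry. Because the RNA is from bulk samples, fewer cells of a type and less RNA per cell cannot be told apart. Nothing in the labels says which samples came from separate animals, so the tests measure the spread between these samples.

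TYROBP, also called DAP12, is a membrane adaptor of myeloid and NK cells. It has almost no outer domain of its own and pairs with ligand-binding receptors such as TREM2, SIRPβ1 and members of the CD300 family. Ligand binding leads to phosphorylation of its immunoreceptor tyrosine-based activation motif (ITAM), which recruits the kinase SYK and through it PI3-kinase, phospholipase Cγ2 and VAV proteins. In microglia the TREM2-TYROBP pair is best known for the disease-associated microglia (DAM) programme, a set of secreted, lysosomal and lipid genes raised around dying neurons, plaques and myelin debris.

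The Tyrobp-KO libraries held between 15477847 and 20008167 counted reads and the WT libraries between 13653391 and 18795365. Levels are given as CPM, counts scaled to the size of the library, after TMM normalization, which corrects that size for the composition of the RNA. Genes were called at a false discovery rate (FDR) of 0.1 in edgeR's quasi-likelihood test. Tyrobp-KO replicate 20 stood apart: 6.12% of its reads were from mitochondrially encoded genes, against 0.620 to 1.31% in the WT samples and 0.848 and 1.31% in replicates 15 and 19. Its astrocyte markers had a geometric mean of 125 CPM, against 25.03 to 38.02 in WT, 24.8 in replicate 15 and 45.0 in replicate 19. Its pan-neuronal markers stood at 50.8 CPM, against 11.7 to 30.7 in WT. Microglia markers were at 704 to 964 CPM in WT and at 1217, 1253 and 793 CPM in Tyrobp-KO replicates 15, 19 and 20. The border macrophage list was the only one of 11 marker lists whose Tyrobp-KO samples were wholly above WT, at 3.50 to 4.61 against 2.56 to 3.07 CPM, low levels at which *Pf4*, *Lyve1* and *Folr2* did not reach 1 CPM in any sample. Sex was unevenly split between the groups as given above. Their part in the results was not tested beyond the values given beside them.

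**Figure D1:**
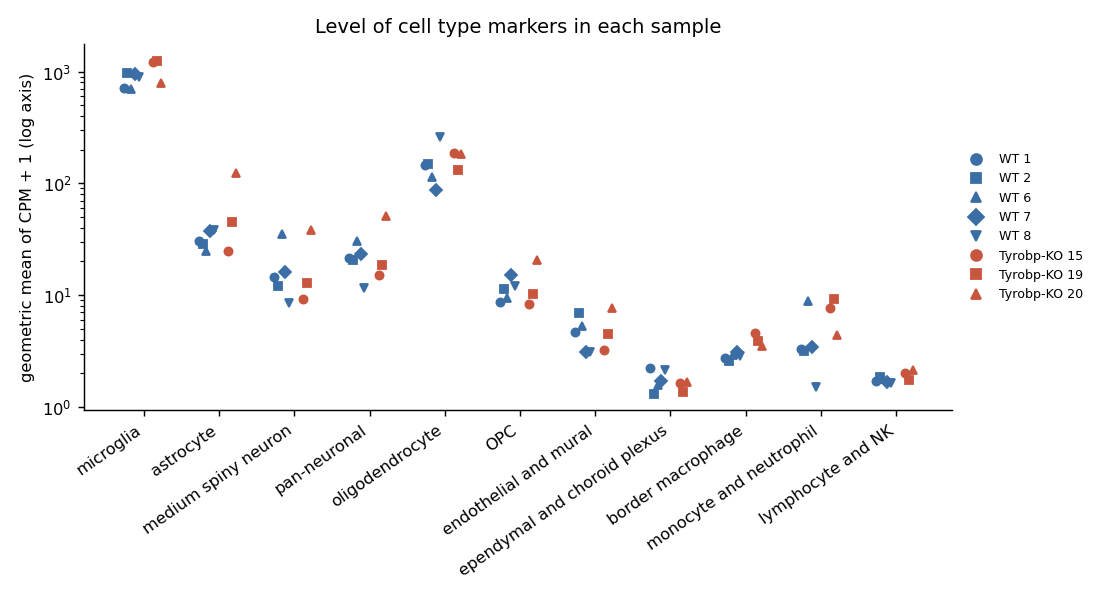
Geometric mean of normalized CPM plus 1 (log axis) of marker genes of microglia and of other cell types, with 1 point for each WT and Tyrobp-KO sample. The microglia markers lie above 700 CPM in every sample, and Tyrobp-KO replicate 20 lies highest for the astrocyte list, at 125 CPM.

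*Tyrobp* itself had 440, 395, 457, 231 and 195 CPM in WT replicates 1, 2, 6, 7 and 8 and 22.3, 20.4 and 17.4 CPM in Tyrobp-KO replicates 15, 19 and 20. Every Tyrobp-KO sample lay far below the lowest WT sample. The group means were 344 ± 122 (SD, n = 5) and 20.03 ± 2.49 CPM (SD, n = 3), a log2 fold change of -4.10 ± 0.37 (SE) or 17.1-fold lower (FDR = 0.00406). The gene lies at chr7:30413760-30417585 on the plus strand of GRCm38. The counts are per gene, so where within it the remaining reads fall was not analysed here. On the RPKM scale, which is CPM per kilobase of exon, the mean level of *Tyrobp* in WT was 515, above the related ITAM adaptor *Fcer1g* at 319, the receptor *Trem2* at 47.5 and the neighbouring adaptor *Hcst*, which signals through a PI3-kinase motif, at 5.09.

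Beside *Tyrobp*, 3 genes fell in the Tyrobp-KO microglia and 0 rose in edgeR's test, where 660 were higher at an unadjusted p under 0.05. They were *Spp1*, *Clec7a* and *St8sia6*, which with *Tyrobp* are 4 of 18017 tested genes (0.0222%). *Spp1* and *Clec7a* belong to the DAM programme. They lie on chromosomes 5, 6 and 2, away from *Tyrobp*.

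*Spp1* encodes osteopontin, a secreted phosphoprotein that binds integrins and CD44. It had 85.7, 63.3, 17.4, 57.2 and 66.4 CPM in WT replicates 1, 2, 6, 7 and 8 and 0.667, 0.643 and 0.471 CPM in Tyrobp-KO replicates 15, 19 and 20. WT replicate 6 was the lowest WT sample, yet no Tyrobp-KO sample came near it. The log2 fold change was -6.58 ± 0.58 (SE), 95.7-fold lower (FDR = 0.00406).

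*Clec7a* encodes dectin-1, a C-type lectin receptor for fungal and plant β-glucans that carries an ITAM-like motif in its own tail. Its level was 110, 104, 60.2, 63.3 and 69.6 CPM in WT replicates 1, 2, 6, 7 and 8 and 15.8, 11.7 and 15.7 CPM in Tyrobp-KO replicates 15, 19 and 20. The groups were wide apart and the 3 Tyrobp-KO samples were close to each other. The log2 fold change was -2.50 ± 0.28 (SE), 5.67-fold lower (FDR = 0.0213), and the gene missed the threshold with sex as a term (FDR = 0.156).

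*St8sia6* encodes an α2,8-sialyltransferase that adds sialic acid to glycans. It had 21.2, 20.2, 12.2, 30.9 and 21.8 CPM in WT replicates 1, 2, 6, 7 and 8 and 2.73, 2.89 and 3.64 CPM in Tyrobp-KO replicates 15, 19 and 20. Here too the groups did not overlap. The log2 fold change was -2.78 ± 0.32 (SE), 6.88-fold lower (FDR = 0.0213).

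The calls of *Clec7a* and *St8sia6* were lost without Tyrobp-KO replicate 15 or 19. Without replicate 15 both had an FDR of 0.165, and without replicate 19 an FDR of 0.171 and 0.186. With a score of other cell types as a term they also missed the threshold, at an FDR of 0.112 and 0.120. Leaving out replicate 20, the sample rich in astrocyte RNA, kept all 4 genes called. For these 4 genes every Tyrobp-KO sample lay below every WT sample, so the direction within each sex had to be the same. The log2 ratio of means, with 1 CPM added, was -5.21 in females and -5.17 in males for *Spp1*. It was -3.47 and -4.12 for *Tyrobp*, -1.94 and -2.78 for *Clec7a* and -2.93 and -2.35 for *St8sia6*. The female ratios rest on 1 WT sample and the male ratios on 1 Tyrobp-KO sample.

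**Figure D2:**
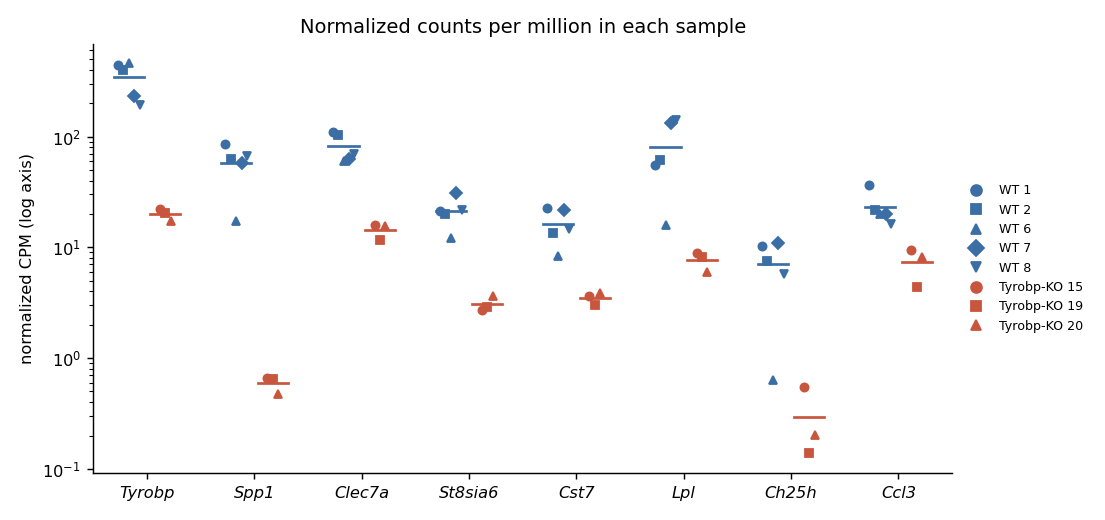
Normalized CPM (log axis) of the called genes and of the uncalled lower genes *Cst7*, *Lpl*, *Ch25h* and *Ccl3* in each WT and Tyrobp-KO sample. Other uncalled genes of similar or smaller p, such as *Lox*, *Tmc3* and the higher *G530011O06Rik*, are not shown. The Tyrobp-KO samples lie below all WT samples for *Spp1*, at 0.471 to 0.667 against 17.4 to 85.7 CPM, and likewise for *Tyrobp*, *Clec7a* and *St8sia6*.

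The promoters of the 3 called genes other than *Tyrobp* are shown to set them beside motifs of factors at work in myeloid cells. Each is 250 bases before to 50 bases after a transcription start in RefSeq, build GRCm38.p6, read 5′ to 3′ on the gene's strand, and for *Spp1* and *Clec7a*, which have 2 entries each, it is the start nearest to the GENCODE one. Both strands were searched for GAGGAAGT, a site of the myeloid factor PU.1, for GGAA followed by any 2 bases and GAAA, an ETS-IRF composite site bound by PU.1 with IRF8 or IRF4, and for TGANTCA, the AP-1 site. Capitals mark a match. The *Spp1* promoter lies at chr5:104434861-104435160 on the plus strand, the *Clec7a* promoter at chr6:129472730-129473029 on the minus strand and the *St8sia6* promoter at chr2:13793471-13793770 on the minus strand.
Spp1: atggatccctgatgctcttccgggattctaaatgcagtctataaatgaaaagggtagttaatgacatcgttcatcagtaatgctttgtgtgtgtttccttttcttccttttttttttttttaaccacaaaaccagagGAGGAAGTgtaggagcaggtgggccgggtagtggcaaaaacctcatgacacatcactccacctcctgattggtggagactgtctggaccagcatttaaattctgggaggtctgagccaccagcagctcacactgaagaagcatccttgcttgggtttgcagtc
Clec7a: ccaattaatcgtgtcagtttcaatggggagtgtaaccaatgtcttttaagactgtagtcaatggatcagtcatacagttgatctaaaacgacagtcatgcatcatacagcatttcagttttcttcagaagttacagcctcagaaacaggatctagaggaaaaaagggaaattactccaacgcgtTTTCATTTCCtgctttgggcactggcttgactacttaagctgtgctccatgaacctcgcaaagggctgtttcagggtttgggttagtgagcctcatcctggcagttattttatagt
St8sia6: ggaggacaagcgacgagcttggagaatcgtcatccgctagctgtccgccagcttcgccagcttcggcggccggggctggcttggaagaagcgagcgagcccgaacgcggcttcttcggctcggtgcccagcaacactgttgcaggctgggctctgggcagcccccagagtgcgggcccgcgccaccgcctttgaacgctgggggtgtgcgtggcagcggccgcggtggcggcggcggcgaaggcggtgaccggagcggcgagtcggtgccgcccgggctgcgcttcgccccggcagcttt
*Spp1* holds a PU.1 site whose first base is at position -113 from the start on the gene's strand, a motif found in 3.202% of 32851 promoters of the same length. *Clec7a* holds an ETS-IRF composite site on the opposite strand at position -66, a motif found in 2.72% of the promoters. *St8sia6*, whose RefSeq start is 544 bases from the GENCODE one and whose window is 72% G and C, holds neither. The AP-1 site, found in 7.81% of the promoters, is in none of these windows. A match is a stretch of letters and does not show that a factor binds there.

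Among the genes next in rank, most were lower in Tyrobp-KO microglia and several again belong to the DAM programme, but none was called. *Cst7*, which encodes cystatin F, an inhibitor of lysosomal cathepsins, had 22.4, 13.5, 8.28, 21.8 and 14.5 CPM in WT and 3.64, 2.99 and 3.91 CPM in Tyrobp-KO. The groups did not overlap and the Tyrobp-KO samples were tightly grouped. The log2 fold change was -2.20 ± 0.36 (SE), with an FDR of 0.239.

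*Lpl*, lipoprotein lipase, which frees fatty acids from triglycerides, had 55.8, 61.2, 15.9, 132 and 142 CPM in WT and 8.97, 8.13 and 5.99 CPM in Tyrobp-KO, in the same order of replicates. WT replicates 7 and 8 were far above the other WT samples and replicate 6 was closest to the Tyrobp-KO samples, without overlap. Its log2 fold change of -3.40 ± 0.64 (SE) had an FDR of 0.565. *Ch25h*, cholesterol 25-hydroxylase, had 10.4, 7.60, 0.628, 10.9 and 5.75 CPM in WT and 0.546, 0.138 and 0.202 CPM in Tyrobp-KO. WT replicate 6, at the level of the Tyrobp-KO samples, all but closed the gap between the groups. The *Ch25h* log2 fold change was -4.57 ± 0.91 (SE), also uncalled. Without WT replicate 6 the test called 8 genes, which added *Cst7*, *Lpl* and *Ch25h* as lower and *Lgi4*, a gene near *Tyrobp*, as higher. This replicate had the highest medium spiny neuron markers of the WT samples, at 35.2 CPM against 8.44 to 16.1 in the others, and the highest monocyte and neutrophil markers, at 8.89 against 1.497 to 3.428 CPM. Whether they bear on its *Lpl* or *Ch25h* level was not tested.

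Of *Tyrobp* and the genes of smallest p outside 15 Mb of it, 25 in all, 20 were lower and 5 higher in Tyrobp-KO microglia. *Lgi4* and *Klk8*, whose p was as small, lie within that distance and are described with the other genes near *Tyrobp*. For 24 of the 25, all but *Ifi44*, the groups did not overlap, where the shares over all genes were 2.40% lower and 2.05% higher. The 25 were picked by p in the same samples, so this count is no separate result. The uncalled lower genes included *Ccl3*, a chemokine, *Mmp12*, macrophage elastase, *Lox*, a collagen cross-linking enzyme, *Rai14*, an actin-associated protein, and *Ctse*, the protease cathepsin E, with log2 fold changes of -1.64, -2.92, -3.57, -1.68 and -2.47. *Lox* had 1.31 to 6.67 CPM in WT and 0.184 to 0.303 in Tyrobp-KO. *Mmp12* had 5.48 to 12.7 CPM in WT and 0.182 to 1.70 in Tyrobp-KO. *Gm28182*, a gene model of unstated function, had no read in any Tyrobp-KO sample against a mean of 0.714 CPM in WT, at least 12.6-fold lower when 3 counts over the Tyrobp-KO group are taken as the floor.

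The 5 higher genes outside that distance were *G530011O06Rik*, *Ifi44*, *Cbln1*, *6330403K07Rik* and *Gap43*, of which none was called. *G530011O06Rik*, a gene model on the X chromosome, had 8.66, 15.4, 24.4, 17.6 and 27.2 CPM in WT and 118, 50.8 and 103 CPM in Tyrobp-KO. All Tyrobp-KO samples were above WT, and both females were above the male. Its log2 fold change was 2.28 ± 0.37 (SE), with an FDR of 0.239. *Gap43*, a growth cone protein of neurons, had 1.18 to 3.77 CPM in WT and was highest in the neuron-rich Tyrobp-KO replicate 20, at 17.7 CPM against 7.52 and 4.92 in replicates 15 and 19. All 25 genes also passed an FDR of 0.1 in DESeq2, which called 168 genes (0.932%), 88 lower and 80 higher, where edgeR called 4 lower and 0 higher.

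The DAM genes were the list with the most lower members. Of its 40 genes, all of them tested, 2 fell at FDR 0.1 (*Spp1* and *Clec7a*), and 15 were lower and 2 higher at an unadjusted p under 0.05. Over all tested genes that share was 3.15% lower and 3.66% higher. The Tyrobp-KO samples lay wholly below WT in 12 of the 40 and wholly above in 0, where the shares over all genes were 2.40% and 2.05%. The list's median log2 fold change was -0.27, against 0.02 over all genes. The number lower at that p was between 12 and 16 under every alternative run, 12 without Tyrobp-KO replicate 19 and 13 without replicate 20.

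*Csf1*, the growth factor that sustains microglia through CSF1R, had 55.0, 46.9, 33.0, 72.4 and 72.1 CPM in WT and 27.7, 16.8 and 30.5 CPM in Tyrobp-KO. The highest Tyrobp-KO sample was just below the lowest WT sample. The log2 fold change was -1.16 ± 0.31 (SE), with an unadjusted p of 0.00327.

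*Igf1*, insulin-like growth factor 1, had 3.14 to 7.25 CPM in WT and 0.322 to 2.29 in Tyrobp-KO, a log2 fold change of -2.06. The chemokine *Ccl3* had 36.9, 21.6, 20.2, 19.8 and 16.1 CPM in WT and 9.40, 4.41 and 8.22 CPM in Tyrobp-KO. WT replicate 1 was well above the other WT samples, and the groups did not overlap. *Ccl4*, its close relative, had 10.05 to 24.73 CPM in WT and 2.43 to 8.55 in Tyrobp-KO, a log2 fold change of -1.52. *Itgax*, which encodes CD11c, had 22.8, 23.9, 9.93, 64.1 and 63.0 CPM in WT and 22.3, 6.52 and 8.55 in Tyrobp-KO. Those groups overlapped, and WT replicates 7 and 8 were again highest.

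Other DAM genes lay near 0 or varied widely. *Apoe*, the main lipid carrier of the brain and itself 10.7 Mb from *Tyrobp* on chromosome 7, had 220, 364, 179, 601 and 470 CPM in WT and 197, 256 and 520 CPM in Tyrobp-KO, spans that largely coincide. Its log2 fold change was -0.18 ± 0.44 (SE), an error that leaves room for a change in either direction. The cathepsin genes *Ctsb*, *Ctsd*, *Ctsl* and *Ctsz* had log2 fold changes between -0.12 and 0.33, and *B2m*, the light chain of MHC class I, 0.09. The 2 higher members were *Fabp5*, a fatty acid binding protein, and *Fth1*, the ferritin heavy chain. *Fabp5* had 12.5 to 17.2 CPM in WT, 18.9 and 16.1 in Tyrobp-KO replicates 15 and 19, and 55.3 in the astrocyte-rich replicate 20.

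Homeostatic microglia genes, which mark microglia at rest, were not called in either direction. Of 40 tested, 0 were lower and 2 higher at an unadjusted p under 0.05, namely *Crybb1* at a log2 fold change of 0.90 and *Gpr165*, an orphan receptor, at 0.92. In both the groups overlapped. Over all tested genes 3.15% were lower and 3.66% higher at that p. Of the 40, 32 had a positive log2 fold change and 8 a negative one. The median was 0.16, and *Sall1* and *Irf8* were at 0.03 and -0.03. *Csf1r*, the receptor for CSF1 and IL-34, had 1365, 2119, 1219, 4002 and 4142 CPM in WT and 3344, 4163 and 1695 CPM in Tyrobp-KO. The WT samples spread more widely among themselves than the group means differed.

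**Figure D3:**
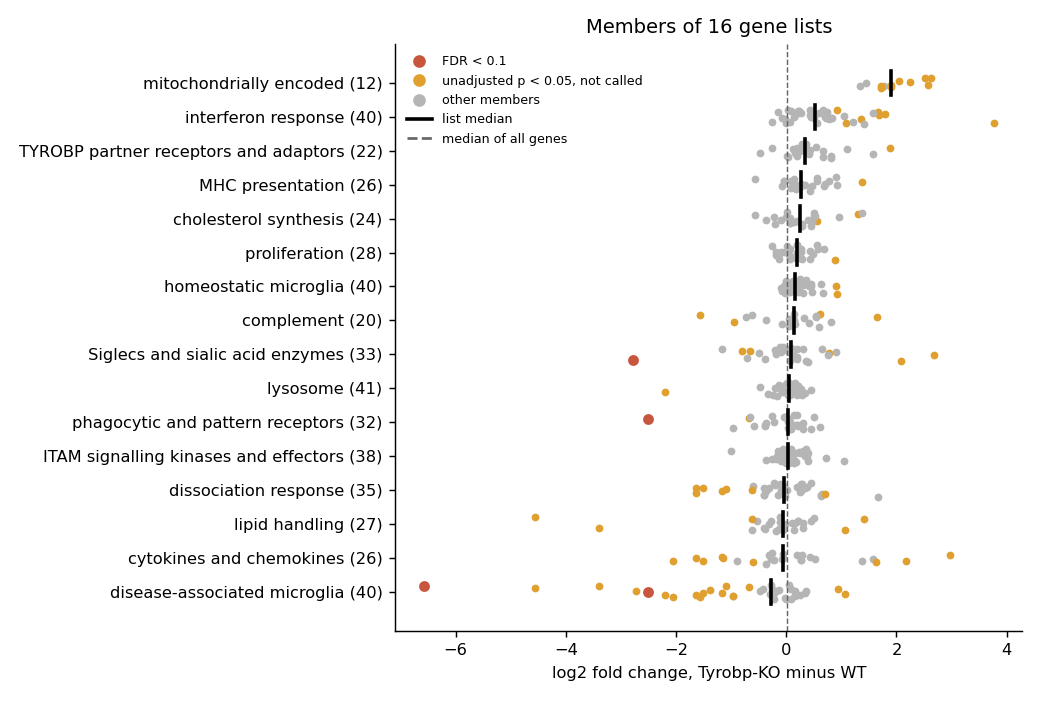
Median log2 fold change (Tyrobp-KO minus WT) of each gene list, with 1 point for each tested member. The DAM list has a median of -0.27 with members down to -6.58, and the mitochondrially encoded genes stand at a median of 1.90, set by Tyrobp-KO replicate 20.

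The receptors and adaptors that work with TYROBP were not called in either direction. Of 28, 22 reached the level for testing and 1, *Sirpb1b*, a receptor at under 2 CPM, was higher at an unadjusted p under 0.05. Over all tested genes 3.66% were higher at that p. Of the 22, 20 had a positive log2 fold change, with a median of 0.35 that was 0.07 without Tyrobp-KO replicate 15. *Trem2* had 224, 305, 228, 254 and 163 CPM in WT and 322, 343 and 235 CPM in Tyrobp-KO. Replicates 15 and 19 were above all WT samples and replicate 20 was among them. Its log2 fold change was 0.35 ± 0.24 (SE), an unadjusted p of 0.166.

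*Hcst*, which encodes DAP10, had 2.36 to 6.16 CPM in WT and 4.96 to 7.22 in Tyrobp-KO, and *Fcer1g* 161 to 400 against 285 to 382. *Siglech*, a receptor that signals through TYROBP, was at a log2 fold change of 0.13. Among 38 tested kinases and effectors of ITAM signalling, 0 passed an unadjusted p under 0.05 in either direction and the median was 0.02.

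The other lists are given by single genes. Over all tested genes 3.15% were lower and 3.66% higher at an unadjusted p under 0.05, and a list with 1 such member is near that share. The same shares hold for the lists that follow. Of 26 cytokines and chemokines, 6 were lower at an unadjusted p under 0.05 (*Ccl3*, *Csf1*, *Igf1*, *Ccl4*, *Cxcl16* and *Il1rn*) and 3 higher (*Ccl5*, *Cxcl14* and *Il12b*), with a median of -0.06. Among 32 phagocytic and pattern receptors only *Clec7a* was called, and the median was 0.03. Of 41 lysosomal genes 1, *Cst7*, was lower at that p. Of 20 complement genes 2 were lower, *Itgax* and *C4b*, and 2 higher, *Clu* and *C5ar1*. The C1q chain genes *C1qa*, *C1qb* and *C1qc* had log2 fold changes of 0.41, 0.59 and 0.54 and were not called. *C1qc* had 887 to 1568 CPM in WT, 1945 and 2064 CPM in Tyrobp-KO replicates 15 and 19, which were above all WT samples, and 1293 CPM in replicate 20, which was among them.

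Of 33 Siglecs and sialic acid enzymes, *St8sia6* was called. *Cd33*, a Siglec whose gene lies 13.1 Mb from *Tyrobp*, had 991, 906, 947, 700 and 845 CPM in WT and 595, 616 and 298 in Tyrobp-KO. The gene was wholly below WT but uncalled, with a log2 fold change of -0.80 ± 0.28 (SE). It was lowest in replicate 20. Of 27 genes of lipid handling, *Lpl*, *Ch25h* and *Acaca* were lower and *Fabp5* and *Scd1* higher at an unadjusted p under 0.05. Cholesterol synthesis had a median of 0.24 over 24 genes, which was -0.01 without replicate 20.

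Interferon response genes were on the whole higher in Tyrobp-KO, but not in all samples. Of 40 genes, 0 were called and 7 were higher at an unadjusted p under 0.05, with a median of 0.53. *Ifi44* had 0.0571 to 0.653 CPM in WT, 6.37 and 7.47 CPM in the Tyrobp-KO females and 0.643 CPM in the Tyrobp-KO male. The Tyrobp-KO male was thus within the WT range. With sex as a term 2 genes passed that p and the median was 0.12, and 21 passed without that male, against 4 without either female. Against WT of the same sex, 10 of the 40 genes were lower in the Tyrobp-KO females and 30 in the Tyrobp-KO male. With 1 WT female and 1 Tyrobp-KO male, sex and single samples cannot be told apart here.

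MHC presentation genes had a median of 0.26 over 26 genes, with *H2-Eb1* alone higher at that p, and proliferation genes a median of 0.19 over 28, with *Stmn1* alone. Both counts were near the 3.66% of all tested genes that were higher. Of 35 genes of the response to tissue dissociation, 6 were lower (*Ccl3*, *Ccl4*, *Fosb*, *Egr1*, *Nr4a1* and *Cd83*) and 1, *Hsp90aa1*, higher at an unadjusted p under 0.05. The 6 lower became 3 without Tyrobp-KO replicate 15, 2 without replicate 19 and 4 without WT replicate 6. *Egr1*, an immediate early gene, had 10.4 to 16.4 CPM in WT, 2.85 and 3.72 in Tyrobp-KO replicates 15 and 19 and 11.4 in replicate 20. *Ccl3* and *Ccl4* thus belong to the dissociation list as well as to the DAM list, and the part of the cell isolation in their values was not tested.

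Some lists moved with 1 library. Of 12 mitochondrially encoded genes, 9 were higher at an unadjusted p under 0.05 and 0 when replicate 20 was left out. *mt-Nd2*, a subunit of respiratory complex I, had 71.9 to 119 CPM in WT, 104 and 156 in Tyrobp-KO replicates 15 and 19 and 1250 in replicate 20. Of 15 astrocyte markers 8 were higher at that p, and 1 without replicate 20. Of 9 border macrophage markers 4 were higher with or without it, but 1 without replicate 15 and 2 without replicate 19. Of 14 monocyte and neutrophil markers 3 were higher, but 11 without WT replicate 6 and 0 without Tyrobp-KO replicate 15.

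Genes near *Tyrobp* are given apart, because a segment around a targeted locus can differ from the host strain. Whether one does in these mice was not tested. Within 15 Mb on either side 400 genes were tested and none was called in edgeR. At an unadjusted p under 0.05, 27 were lower and 16 higher, 10.8% of the window against 6.72% of the genes outside it and 6.37% of the 973 tested genes on the rest of chromosome 7. Within 5 Mb the share was 12.5% of 176 genes. The excess depended on the samples: without Tyrobp-KO replicate 20 it was 18.3% against 11.3%, and without replicate 19 6.52% against 5.41%. With all samples, DESeq2 called 4 genes of the window lower and 5 higher at an FDR of 0.1. That was 2.25% of the window against 0.900% of the genes outside it. They included *Lgi4* (FDR = 2.25e-05) and *Klk8* (FDR = 0.000294).

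*Lgi4*, a secreted protein that glial cells need for myelination of peripheral nerve, lies 0.65 Mb from *Tyrobp*. It had 11.9, 12.9, 6.11, 19.3 and 13.97 CPM in WT and 51.7, 56.8 and 39.9 CPM in Tyrobp-KO. All Tyrobp-KO samples were above WT. The log2 fold change was 1.95 ± 0.30 (SE), with an FDR of 0.232.

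*Klk8*, the secreted protease neuropsin, 13.4 Mb away, had 30.2, 40.2, 29.0, 33.8 and 18.97 CPM in WT and 12.8, 11.4 and 6.80 in Tyrobp-KO, which did not overlap, a log2 fold change of -1.56 ± 0.30 (SE). *Siglecg*, an inhibitory Siglec 12.99 Mb away, had 0.856 to 2.83 CPM in WT and 10.3, 9.19 and 2.96 in Tyrobp-KO, with replicate 20 next to the WT range. *Zfp14*, a zinc finger gene on the other side, had 11.3 to 20.9 CPM in WT and 26.4 to 39.8 in Tyrobp-KO. *D7Ertd128e* had no read in any Tyrobp-KO sample against a mean of 0.696 CPM in WT, at least 12.3-fold lower with 3 counts over the Tyrobp-KO group as the floor. Of the 10 nearest tested genes, 5 on each side, none passed an unadjusted p under 0.05.

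**Figure D4:**
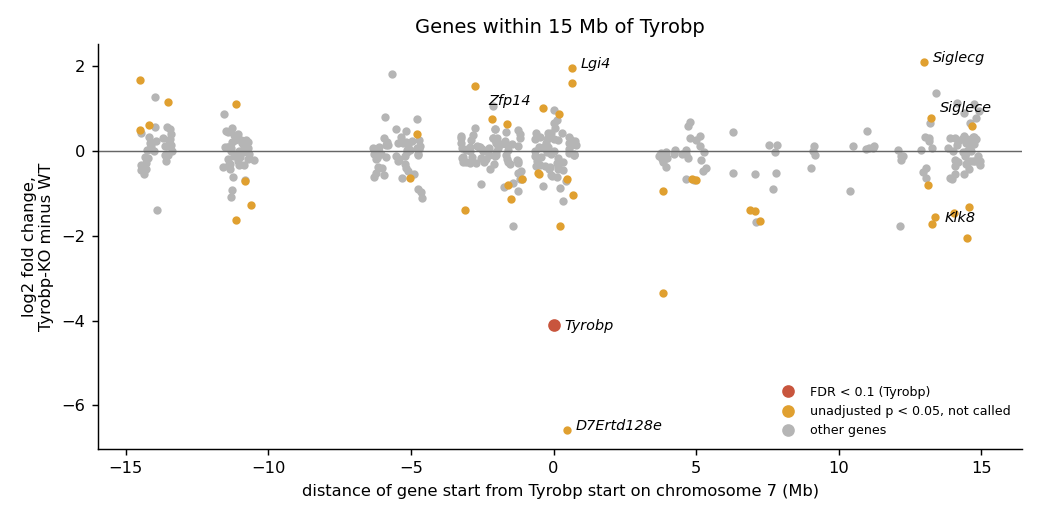
Log2 fold change (Tyrobp-KO minus WT) of the tested genes within 15 Mb of *Tyrobp* against their distance from it in Mb. *Tyrobp*, at -4.10, is the gene called in edgeR, and *D7Ertd128e*, which had no read in Tyrobp-KO, is the lowest point. *Lgi4* at 1.95 and *Klk8* at -1.56 lie 0.65 and 13.4 Mb away.

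The same deletion in Q175 mice offers a comparison that shares no sample with the one above. In Q175;Tyrobp-KO against Q175 microglia, DESeq2 called 41 of 18059 genes (0.227%), of which 40 were not *Tyrobp*, where edgeR called 2, *Tyrobp* and *St8sia6*. In WT mice 35 of these 40 had the same sign, 20 passed an unadjusted p under 0.05 with it and 20 did not overlap between groups. Over all genes tested in WT mice, 3.15% were lower and 3.66% higher at that p. The shares without overlap were 2.40% lower and 2.05% higher. The 28 that were lower in Q175;Tyrobp-KO than in Q175 microglia had a median log2 fold change of -1.60 in WT mice. In Q175 mice, whose samples chose them, their median was -1.93. Of the 30 genes outside the window around *Tyrobp*, 25 had the same sign and 15 passed that p. Of 27 genes chosen in place of these by an unadjusted edgeR p under 0.001, 26 had the same sign and 20 passed an unadjusted p under 0.05 in WT mice. With sex as a term in the WT comparison, 34 of the 40 had the same sign and 21 passed.

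*Lpl* had a log2 fold change of -3.40 in WT mice and -1.91 in Q175 mice, *Mmp12* -2.92 and -3.07, *Lox* -3.57 and -3.54 and *Igf1* -2.06 and -2.96. *Itgax* stood at -1.56 and -1.42, and *Apoe* at -0.18 and -0.87. The 5 genes with opposite signs were *Ppp1ccb*, *Ankrd35*, *Rgs5*, *Gm48478* and *Gm20274*, named here because of their small number.

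**Figure D5:**
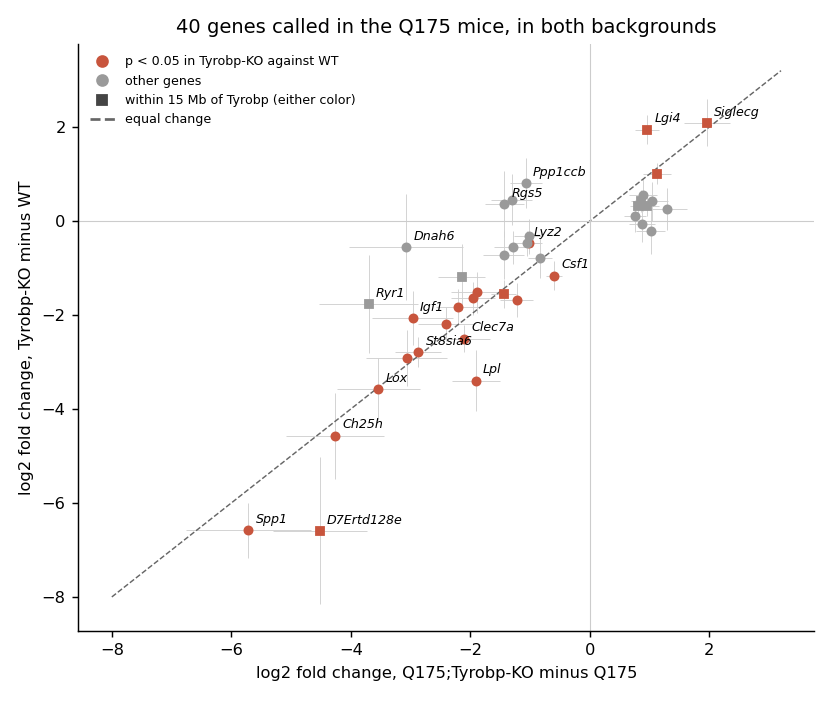
Log2 fold change of the *Tyrobp* deletion in WT mice (Tyrobp-KO minus WT) against that in Q175 mice (Q175;Tyrobp-KO minus Q175), for the genes called by DESeq2 in the latter. Of 40 genes other than *Tyrobp*, 35 have the same sign on both axes.

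Whether the deletion acted differently in WT and Q175 mice was tested as an interaction over all 4 groups. The test called 0 of 18613 genes in edgeR (0%), with 1118 at an unadjusted p under 0.05 and a smallest FDR of 0.716, and 2 in DESeq2, *Tmc3* and *Ccbe1*. Of the 40 genes called by DESeq2 in Q175 mice, 10 passed that unadjusted p for the interaction in edgeR. Outside 15 Mb of *Tyrobp* 6 of 30 did. The Q175 samples that chose these genes are also part of the interaction test, so this count is no separate result. *Tmc3*, a member of the TMC family of membrane proteins, had 16.2, 14.7, 3.71, 7.69 and 15.96 CPM in WT and 0.910, 0.368 and 2.09 CPM in Tyrobp-KO. The groups did not overlap, with a log2 fold change of -3.41 ± 0.66 (SE) that was uncalled. In Q175 mice the value was 0.58, and the unadjusted p of the interaction was 7.44e-05 in edgeR. *Bmp4*, a secreted growth factor at or under 1.45 CPM in every sample compared here, stood at -3.76 in WT and -0.47 in Q175 mice.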

How the data were processed

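RNA of CD11b-bead microglia was sequenced after SMART-Seq v4 amplification, with non-directional libraries. The methods name STAR, GRCm38 and featureCounts with a UCSC gene model, while the submitters' processing notes name GRCh38, a human build. The identifiers were those of mouse Ensembl, and all 55536 matched GENCODE M21 for GRCm38, which gave symbols, positions and exonic lengths. The values the authors deposited are counts, whole reads per gene without normalization. Of 20 count columns, 2 have no sample in the labels and were not used. The labels give 2 striata per sample and the methods give 1.

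Counts were normalized with TMM, and genes reaching 1 CPM in any of the 8 samples were tested with edgeR 4.0.16 (R 4.3.3), WT and Tyrobp-KO only, without covariates, with Benjamini-Hochberg adjustment at an FDR of 0.1. Standard errors were taken as the log2 fold change divided by the square root of F. The Q175 comparison used the same filter. Alternatives were DESeq2 1.42.0, other scalings and filters, a robust fit, 1 fit over 4 groups, sex or a score of other cell types as a term, and leaving out each sample, and the scripts were tested on simulated data. Genes named are *Tyrobp* and those of smallest p outside 15 Mb of it (25 in all), list members, genes near *Tyrobp*, and those called in Q175 mice. The genes, lists and tests were chosen with earlier results of these data known. Reads carry no molecular identifiers, and counts of overlapping antisense genes, or of close copies such as *Lyz1* and *Lyz2*, are uncertain. Sex in the labels matched the sex-linked genes in all 18 samples, and no library was a copy of another.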

Additional observations from a re-analysis of the deposited data

Results flagged for a closer look

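Of 49 sets of WT values examined, 3 had 1 sample farther from the others than Dixon's 95% limit for 5 samples allows, a limit that chance passes in about 1 of 20. *Ccl3* stood at 36.9 CPM in WT replicate 1 and at 16.1 to 21.6 CPM in the other WT samples. Medium spiny neuron markers had a geometric mean of 35.2 CPM in WT replicate 6 and 8.44 to 16.1 CPM in the others. Monocyte and neutrophil markers stood at 8.89 CPM in the same replicate and at 1.497 to 3.428 CPM in the others. The 3 Tyrobp-KO samples are too few for this check.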

How the results depend on the processing

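*Spp1* and *Tyrobp* were called in every planned setting. Against the 4 genes called, DESeq2 called 168 and with sex as a term 38, no filter 15 (11 lower, 4 higher), 1 fit over all 4 groups 8, sex as a term 3, the score of other cell types as a term 2, and leaving out single samples 2 to 8. Sex as a term without Tyrobp-KO replicate 20, added after seeing the data, called 0 in edgeR (smallest FDR 0.130, 1571 genes at an unadjusted p under 0.05). Near *Tyrobp*, 22 genes passed that p within 5 Mb and 26 to 73 within 15 Mb when single samples were left out, against 43. The interaction called 2 genes in DESeq2, which was not rerun without single samples. In edgeR it called 0, with all samples and without any 1 of them. Of the marker lists, 2 did not overlap between groups without Tyrobp-KO replicate 20, those of microglia and border macrophages, and 1 with it, that of border macrophages. Microglia markers stood at 1217 and 1253 CPM in Tyrobp-KO replicates 15 and 19, against 704 to 964 CPM in WT. Log2 fold changes reversed for *Ido1* with the score (-0.92, from 3.44), and, without Tyrobp-KO replicate 20, for *mt-Nd1* (-0.045, from 1.90) and *Rbfox3* (-1.26, from 0.10), which ranged up to 2.38 and 0.55 when other single samples were left out, and the cause was not tested. Changes of sign where neither value had an unadjusted p under 0.05 are not counted. No paired analysis was possible because the groups share no replicate number. With 3 Tyrobp-KO samples, the p of a gene rests on few values, and a gene that missed the threshold is not shown to be unchanged.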

Other observations

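WT replicates 7 and 8 stood apart from WT replicates 1, 2 and 6 in several microglial genes, in opposite directions. *Csf1r* had 4002 and 4142 CPM in them against 1219 to 2119 in the others, and *Axl*, a receptor for apoptotic cells, 91.8 and 85.7 against 15.7 to 49.1 CPM. *Fcer1g* had 174 and 161 CPM against 294 to 400. These samples are of different sex, and they were picked out after their values were seen.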
